A study of Mus musculus with 6 samples.

Results

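The TRIM genes encode tripartite motif proteins, most of which join a RING finger, which transfers ubiquitin, to B-box zinc fingers and a coiled coil. Genes were taken by symbol, as Trim followed by digits and at most 1 letter, among array rows (probe sets) that the platform annotation ties to a single gene. This gave 58 genes of 19938 measured, each with 1 probe set. A few of them, such as Trim14, Trim16, Trim29 and Trim44, lack the RING finger, so the set was defined by name and not by ligase activity.

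RNA came from CD11b+Gr-1+ cells sorted from livers of C57BL/6 mice bearing EL4 tumours, a transplanted mouse lymphoma, and the labels name these cells myeloid-derived suppressor cells. There were 3 arrays from mice given PBS, which some labels call untreated, and 3 from mice given type IV concanavalin A (Con A), a plant lectin used to provoke T cell-driven liver injury in mice. Cells were collected 3 hours after injection, and both groups carried the tumour. The dose of Con A is written as 12.5 mg/kg in some labels and 12.5 ug/kg in another. The labels state 3 mice per group without tying each array to 1 mouse, so p-values reflect only how much these arrays differed within a group, and that variation may be technical. The study's title concerns acute hepatitis and the maturation of these cells, and the comparison asks which TRIM transcripts differed after Con A.

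Several TRIM proteins act in nucleic acid sensing. In that pathway RIG-I and MDA5 detect viral RNA in the cytosol and signal through the mitochondrial adaptor MAVS and the kinase TBK1 to interferon genes, and ubiquitin chains attached by TRIM ligases switch some of these steps on or off. Many TRIM genes are themselves induced by interferons, among them relatives of the retroviral restriction factor TRIM5 that lie side by side in the genome. Others bind chromatin, microtubules or muscle fibres.

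All levels are log2 values, and differences are Con A minus PBS. Groups were compared with limma, p-values were adjusted by Benjamini-Hochberg across the 19938 genes, and a gene passed at an adjusted p under 0.05. Array medians lay between 7.05 and 7.08. The sort genes Itgam (CD11b) and Ly6g, part of the Gr-1 antigen, had levels of 12.73 to 13.06 and 13.46 to 13.69. The 8 granulocytic markers averaged 13.24 to 13.37 on PBS arrays and 13.29 to 13.30 on Con A arrays, and 0 of them passed limma's test (0 at an unadjusted p under 0.05). These levels lie near the array maxima of 14.24 to 14.30, and differences at very high signal are shrunk, so a change could be missed. The 7 measured of 8 monocytic markers averaged 10.93 to 11.32 against 9.49 to 10.07. Of them 4 were lower, or 57.1%, against 7.22% of all genes and 12.3% of those with a mean level of 7 or more. Con A replicate 2 stood apart in markers of other cells, with 5 Kupffer cell markers averaging 9.04, against 6.77 to 7.42 on PBS arrays and 6.98 and 7.58 on the other Con A arrays. The 6 hepatocyte genes averaged 7.99 there and 6.82 to 6.94 on the other 5 arrays, and the 4 platelet genes 9.36 there, 7.15 and 8.50 on the other Con A arrays and 6.82 to 7.58 after PBS. Of these lists, 1 platelet gene (Itga2b) rose and 0 Kupffer cell and hepatocyte genes passed (0 at an unadjusted p under 0.05). The 4 measured B cell genes averaged 7.10 to 7.61 on PBS arrays and 6.90 to 6.96 on Con A arrays. Of them 1 passed (Ms4a1, lower), and 3 had an unadjusted p under 0.05. Of 4 measured T cell and EL4 genes and of 2 measured erythroid genes, 0 passed (0 at an unadjusted p under 0.05). For these counts, 4.59% of all genes rose and 7.22% fell.

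After Con A, 3 of the 58 TRIM genes rose and 6 fell, where 4.59% of all genes rose and 7.22% fell. Trim13 rose 5.17-fold, Trim21 2.01-fold and Trim56 1.35-fold. Trim65 was 1.76-fold lower, Trim8 1.66-fold, Trim35 1.65-fold, Trim14 1.39-fold, Trim3 1.29-fold and Trim39 1.26-fold. The share that passed was 15.5%, against 11.8% of all genes, so the family as a whole lay near the background. The median difference was 0.03 for the TRIM genes and 0.02 for all genes. The count of lower genes was 3 when PBS replicate 1, PBS replicate 2 or Con A replicate 1 was omitted, and 2 when Con A replicate 2 was. Trim13, Trim21, Trim65 and Trim8 passed in all 11 alternative fits.

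All 9 had mean levels of 7 or more. Of the 35 TRIM genes in that range, 3 rose and 6 fell (25.7%), against 19.6% of all genes at such levels, where 7.33% rose and 12.3% fell. Below a mean level of 7, 0 of 23 passed limma's test (1 at an unadjusted p under 0.05), against 2.22% of all genes there. Groups did not overlap in 16 of the 35 genes, or 45.7%, where the share over all genes at such levels was 41%. Con A values lay above in 5 of them and below in 11, against 16.2% and 24.8% of all genes at such levels. They did not overlap in 1 of the 23 dimmer genes, against 16.3%. The genes nearest the boundary were Trim71 at 7.001 and Trim68 at 7.003 above it, and Trim46 at 6.82 and Trim66 at 6.70 below it.

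**Figure D1:**
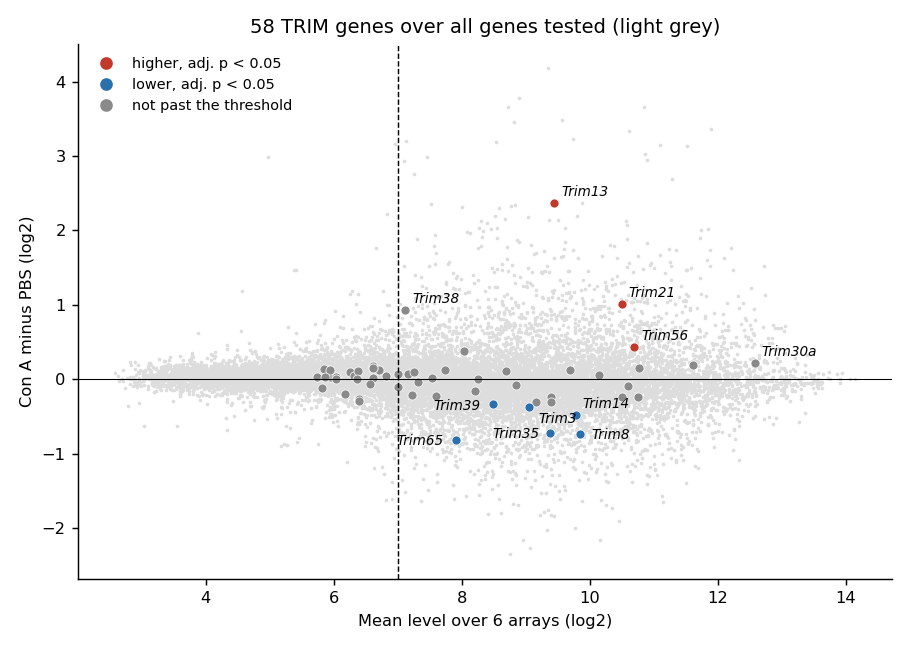
Mean log2 level over 6 arrays (x axis) against the log2 difference, Con A minus PBS (y axis), for 58 TRIM genes (large points) over all 19938 genes (light grey); the dashed line marks a level of 7. The 3 higher genes (red) and 6 lower genes (blue) lie to the right of the line, and the 23 genes left of it lie between -0.29 and 0.18.

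Trim13 encodes a ligase anchored in the endoplasmic reticulum membrane, with roles in protein degradation and autophagy. Its level (probe set 10415784) was 7.88, 8.13 and 8.76 on the PBS arrays and 10.59, 10.79 and 10.49 on the Con A arrays. The lowest Con A value lay well above the highest PBS value, that of PBS replicate 3. The mean rose from 8.26 ± 0.45 to 10.63 ± 0.15 (SD, n = 3), a difference of 2.37 (95% interval 1.87 to 2.86, limma adjusted p = 0.00112). In RefSeq, Kcnrg and the noncoding Dleu2 overlap Trim13. Their own probe sets had mean levels of 7.10 and 6.37 and differences of -0.07 and -0.67, neither of which passed (limma adjusted p = 0.843 and 0.0944).

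Trim21 encodes a cytosolic antibody receptor that marks antibody-coated particles for degradation and is a known interferon target. It stood at 9.93, 9.99 and 10.07 after PBS and at 10.94, 11.11 and 10.95 after Con A (probe set 10566144). Each group was tight, and the groups did not overlap. The mean rose from 9.996 ± 0.07 to 11.004 ± 0.10 (SD, n = 3), a difference of 1.01 (95% interval 0.82 to 1.20, limma adjusted p = 0.000827).

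Trim56 encodes a ligase linked to antiviral signalling through STING and TLR3. Its levels were 10.48, 10.50 and 10.47 after PBS and 10.76, 10.90 and 11.07 after Con A. All Con A values lay above the PBS values, by a small margin. The difference of 0.43 (95% interval 0.21 to 0.64) passed with limma adjusted p = 0.0244. It missed the threshold in 4 of the 6 fits that omitted 1 array, with an adjusted p of 0.0899 or 0.0653 when PBS replicate 1 or 2 was left out and of 0.0814 or 0.0662 when Con A replicate 2 or 3 was. The lowest in any alternative was 0.0203.

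Among the genes that fell, Trim65, which encodes a ligase that activates MDA5, read 8.22, 8.11 and 8.60 after PBS and 7.48, 7.48 and 7.52 after Con A. The Con A arrays were nearly equal and all below the PBS arrays. It fell by 0.82 (95% interval -1.11 to -0.52, limma adjusted p = 0.00713). Trim8, a regulator of TNF and IL-1 signalling whose protein also binds SOCS1, read 10.20, 10.12 and 10.34 after PBS and 9.57, 9.26 and 9.63 after Con A. It fell by 0.73 (95% interval -1.01 to -0.46, limma adjusted p = 0.00801).

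Trim35, whose protein acts on IRF7 and on the glycolytic enzyme PKM2, read 9.65, 9.69 and 9.87 after PBS and 8.88, 8.89 and 9.27 after Con A. Con A replicate 3 was the nearest to the PBS arrays without reaching them. It fell by 0.72 (95% interval -1.01 to -0.43, limma adjusted p = 0.0105), and the adjusted p ranged from 0.00408 to 0.0505 over the alternatives, missing the threshold when Con A replicate 2 was omitted. Trim14, an adaptor of the MAVS complex, read 9.89, 9.99 and 10.18 after PBS and 9.61, 9.34 and 9.67 after Con A. It fell by 0.48 (95% interval -0.75 to -0.21, limma adjusted p = 0.0388), and no fit with 1 array left out kept that call, at an adjusted p from 0.0603 when Con A replicate 3 was omitted to 0.11 when Con A replicate 2 was; over all alternatives the lowest was 0.0265.

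The remaining falls were small. Trim3, of the NHL repeat subgroup and known from neurons, read 9.25, 9.18 and 9.29 after PBS and 8.74, 8.81 and 9.05 after Con A, a fall by 0.37 (limma adjusted p = 0.0472). Trim39, a ligase that regulates apoptosis and the cell cycle, read 8.70, 8.67 and 8.61 after PBS and 8.37, 8.22 and 8.37 after Con A, a fall by 0.34 (limma adjusted p = 0.0271). The groups did not overlap in either gene. Trim3 lost its call in 5 of the 6 fits with 1 array left out, the exception being that without Con A replicate 3, with adjusted p from 0.0275 to 0.155 over all alternatives. Trim39 lost it in the 5 fits other than that without PBS replicate 3, with adjusted p from 0.0211 to 0.103 over all alternatives. The monocytic markers fell on the same arrays, and their part in the 6 falls was not tested. In sorted cells measured in bulk, fewer cells of a type and less RNA per cell cannot be told apart.

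**Figure D2:**
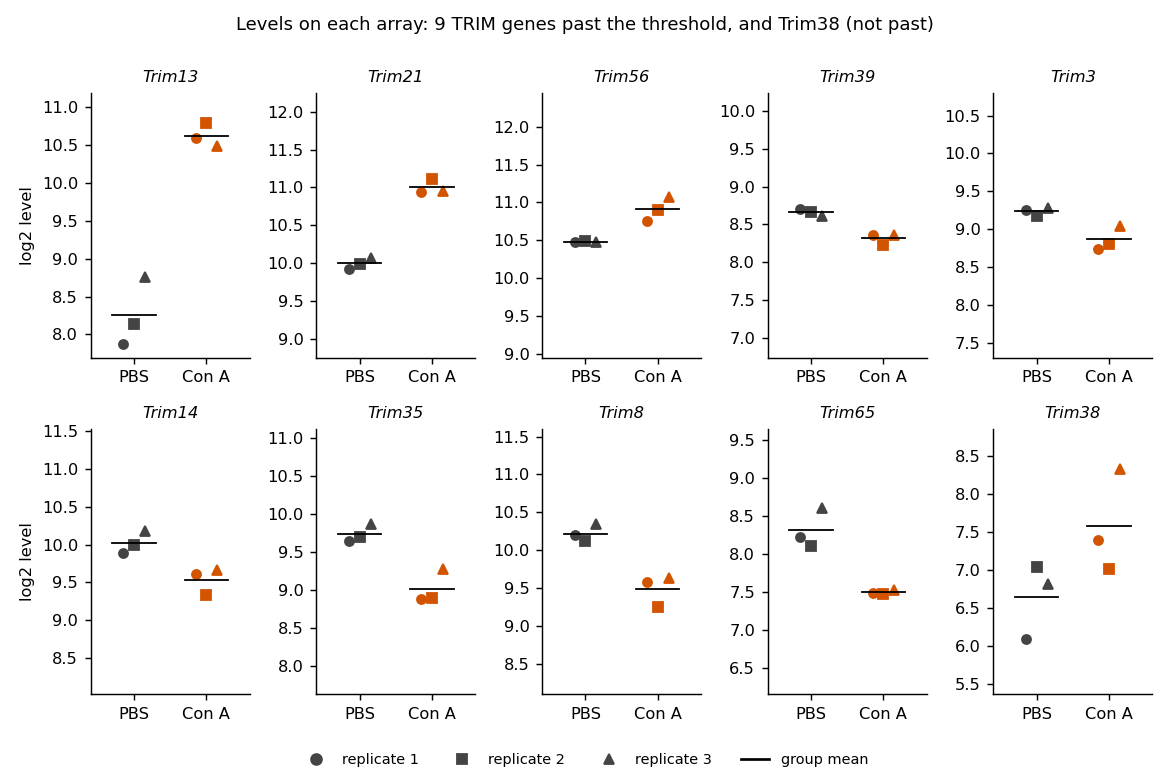
Log2 level on each array (y axis, the same span of log2 units in each panel) after PBS (grey) and Con A (orange) for the 9 TRIM genes that passed the test and for Trim38, which did not. Symbols mark the replicate number and bars the group mean; the groups do not overlap in the 9 genes, and Trim38 spreads from 6.08 to 8.33.

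Trim38, whose protein limits TLR and TNF signalling, had the largest difference among genes that did not pass. It read 6.08, 7.04 and 6.82 after PBS and 7.39, 7.01 and 8.33 after Con A. Con A replicate 2 lay below PBS replicate 2, so the groups overlapped. The difference was 0.93 (95% interval 0.08 to 1.78, limma adjusted p = 0.163), and it became 0.55 when Con A replicate 3 was omitted and 1.22 when Con A replicate 2 was. Its standard deviations of 0.50 and 0.68 compare with medians of 0.14 and 0.14 over the 35 genes.

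Trim25, which encodes the ligase that activates RIG-I, read 10.83, 10.78 and 11.03 after PBS and 10.53, 10.64 and 10.75 after Con A, with all Con A values below the PBS values. The difference of -0.24 (95% interval -0.46 to -0.01) did not pass (limma adjusted p = 0.184). Trim26 and Trim23, which also act on antiviral signalling, differed by 0.00 (95% interval -0.25 to 0.25) and 0.02 (-0.25 to 0.29). Of 16 TRIM genes grouped by described roles in antiviral or innate signalling, 3 rose, 4 fell and 9 did not pass. So 43.8% passed, against 11.8% of all genes and 19.6% of those at level 7 or more. The calls were divided between the directions, with a median difference of 0.01. The 6 TRIM5-related genes described next were grouped apart, and 0 of them passed (0 at an unadjusted p under 0.05). Groups were chosen with earlier results of these data known, so the share depends on the grouping.

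The mouse relatives of TRIM5 on chromosome 7 form runs of neighbouring genes, Trim6, Trim34a, Trim12a and Trim12c in one and Trim30a and Trim30d in another. None of the 6 passed limma's test (0 at an unadjusted p under 0.05), and in all 6 the groups overlapped. All 6 had mean levels of 7 or more, where 19.6% of all genes passed and groups did not overlap in 41%. Whether these 6 genes differ from those shares was not tested. Trim30a, whose protein restrains TLR signalling, read 12.40, 12.28 and 12.73 after PBS and 12.46, 12.82 and 12.77 after Con A. The PBS replicate 3 value exceeded that of Con A replicate 1. The difference was 0.22 (95% interval -0.12 to 0.55, limma adjusted p = 0.415).

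Trim12a read 11.51, 11.37 and 11.65 after PBS and 11.69, 11.81 and 11.62 after Con A, a difference of 0.19 (95% interval -0.03 to 0.42, limma adjusted p = 0.275). Trim30d read 10.58, 10.16 and 11.37 after PBS and 10.51, 11.13 and 10.92 after Con A. Its highest value was on PBS replicate 3, and its PBS standard deviation of 0.62 was the largest of the 35 genes. The interval of its difference, -0.55 to 0.85, was correspondingly wide. Trim12c, Trim34a and Trim6 differed by 0.06 (95% interval -0.20 to 0.33), 0.12 (-0.10 to 0.33) and -0.16 (-0.46 to 0.14). These genes are near-identical copies in part, and probe sets of copies can pick up each other's transcripts, so values of single members are uncertain.

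**Figure D3:**
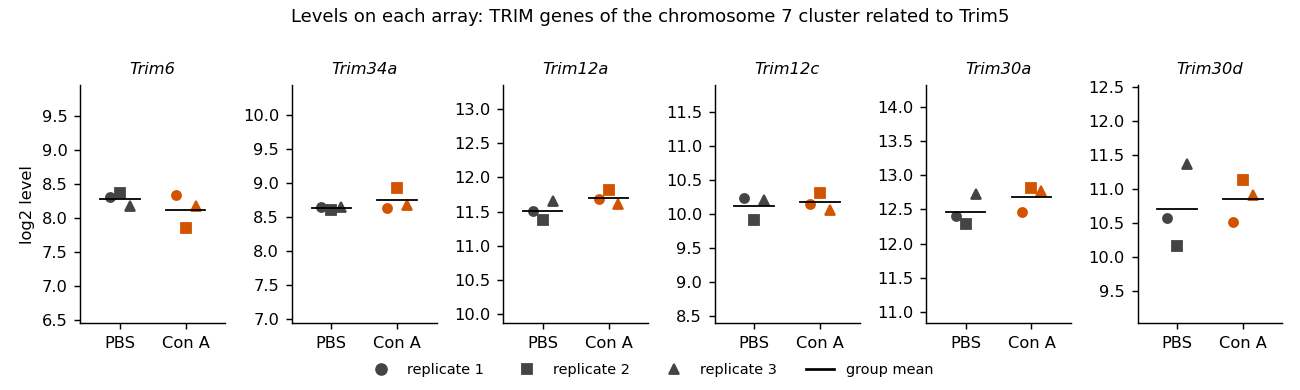
Log2 level on each array (y axis, the same span in each panel) after PBS (grey) and Con A (orange) for 6 TRIM5-related genes of chromosome 7. Symbols mark the replicate number and bars the group mean; the groups overlap in all 6 genes, and Trim30d has its highest value, 11.37, on PBS replicate 3.

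Promoter sequences are shown because Trim21 and 5 of the 6 TRIM5-related genes share an interferon motif. Trim21 alone among them passed the test, which is near the 19.6% of all genes at level 7 or more that passed. RefSeq windows of 300 bases (250 before and 50 after the gene's start, assembly GRCm38.p6) were matched for 46 of the 58 TRIM genes, with 60 windows in all. The core of the interferon-stimulated response element, GAAA followed by any 2 bases and GAAA, was searched on both strands. It occurred in 9 of 60 TRIM windows, or 15%, from 8 genes, and in 3.44% of 32851 windows of all genes. Of the 8 genes, 5 belong to the chromosome 7 runs, whose windows are copies in part. The motif was not found in the window of Trim6, the sixth gene of these runs. The stretches of 30 bases that hold the motif follow, written on the gene's strand with the motif or its reverse complement in capitals.
Trim21: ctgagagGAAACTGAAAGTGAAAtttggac
Trim30a, upstream start: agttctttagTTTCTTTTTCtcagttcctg
Trim30a, downstream start: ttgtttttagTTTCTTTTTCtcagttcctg
Trim30d: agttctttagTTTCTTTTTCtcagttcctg
Trim12a: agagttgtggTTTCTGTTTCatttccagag
Trim12c: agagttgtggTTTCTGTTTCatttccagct
Trim34a: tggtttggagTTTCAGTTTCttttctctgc
Trim26: cttccgaTTTCACTTTCCTTTTCtcgggcc

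The Trim21 stretch lies at chr7:102565447-102565476 on the minus strand and holds 2 overlapping matches that begin 14 bases after the start. The Trim30a stretches lie at chr7:104465210-104465239 and chr7:104446104-104446133 and that of Trim30d at chr7:104507871-104507900, all on the minus strand. The Trim30d stretch is the same 30 bases as that of the upstream Trim30a start. Those of Trim12a and Trim12c lie at chr7:104315466-104315495 and chr7:104353359-104353388 on the minus strand, and that of Trim34a at chr7:104244457-104244486 on the plus strand. That of Trim26 lies at chr17:36836979-36837008 on the plus strand, 160 bases before the start, with 2 overlapping matches. The other gene with the motif was Trim2, which had a mean level of 5.91 and differed by 0.13 (limma adjusted p = 0.387). Trim21 rose by 1.01, and the other 7 genes with the motif differed by 0.00 to 0.22 without passing. Of all genes 11.8% passed, and 19.6% of those at level 7 or more, so the genes with the motif lay near the background.

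Of the 9 genes that passed, Trim13, Trim21, Trim39 and Trim56 were matched to windows, and the interferon motif was found in that of Trim21. The STAT element, TTC followed by any 3 bases and GAA, was found in windows of 5 TRIM genes (Trim15, Trim31, Trim38, Trim45 and Trim46), in 10% of TRIM windows and 8.3% of all windows. None of the 5 passed limma's test, and Trim38 was the 1 at an unadjusted p under 0.05. All but Trim38 had mean levels below 7, where 2.22% of all genes passed. A match describes letters in the window and not a bound site.

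Of the 4 members that act on chromatin, 0 passed limma's test (1 at an unadjusted p under 0.05). That compares with 11.8% of all genes and 19.6% of those at level 7 or more. Trim28 encodes KAP1, the corepressor that zinc finger proteins bring to endogenous retroviruses. It read 9.43, 9.57 and 9.67 after PBS and 9.30, 9.11 and 9.33 after Con A. The Con A values all lay below the PBS values, and the difference of -0.31 (95% interval -0.54 to -0.09) missed the threshold (limma adjusted p = 0.0846). Trim33, a regulator of TGF-beta and SMAD signals, read 10.71, 10.66 and 10.55 after PBS and 10.67, 10.50 and 10.48 after Con A, a difference of -0.09 (95% interval -0.29 to 0.11). Trim24, a nuclear receptor cofactor, and Trim66 differed by -0.08 and 0.12.

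Of 15 measured genes that work with KAP1, 2 fell and 0 rose, or 13.3%, against 11.8% of all genes passing in either direction. All 15 had mean levels of 7 or more, where 19.6% of all genes passed and 12.3% fell. The list as a whole thus lay near the background. Setdb1, which encodes the histone methyltransferase that KAP1 recruits, read 9.31, 9.35 and 9.28 after PBS and 8.69, 8.60 and 8.60 after Con A. Its groups were far apart relative to their spread, and it fell by 0.69 (95% interval -0.85 to -0.53, limma adjusted p = 0.0015). Zfp809, a zinc finger gene that silences retroviruses through KAP1, fell by 0.87 (limma adjusted p = 0.0022).

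None of the remaining members passed, and their differences were small. Trim41, Trim16 and Trim62 had all Con A values below all PBS values, and differed by -0.23, -0.30 and -0.21 (limma adjusted p = 0.0899, 0.0982 and 0.254). Trim16 passed when PBS replicate 3 was omitted, with limma adjusted p = 0.0227 in a range of 0.0227 to 0.252 over its alternatives. In Trim11 and Trim71 all Con A values lay above the PBS values, by differences of 0.12 and 0.07. Trim59 differed by 0.38 (95% interval -0.06 to 0.81), with 8.14 on both PBS replicate 2 and Con A replicate 2. Trim27, Trim44, Trim37, Trim47, Trim54, Trim67 and Trim68 lay between -0.24 and 0.12.

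The 23 dimmer members, with mean levels of 5.74 to 6.82, differed by -0.29 to 0.18. They include the erythroid genes Trim10 and Trim58, the muscle genes Trim55, Trim63 and Trim72, the NHL repeat genes Trim2 and Trim32 and the neuronal genes Trim9 and Trim46. Trim9 was the 1 dim gene whose groups did not overlap, at 6.49, 6.41 and 6.71 after PBS and 6.27, 6.17 and 6.30 after Con A (difference -0.29, limma adjusted p = 0.111). Without detection calls, expression of these genes in the sorted cells is not established.

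**Figure D4:**
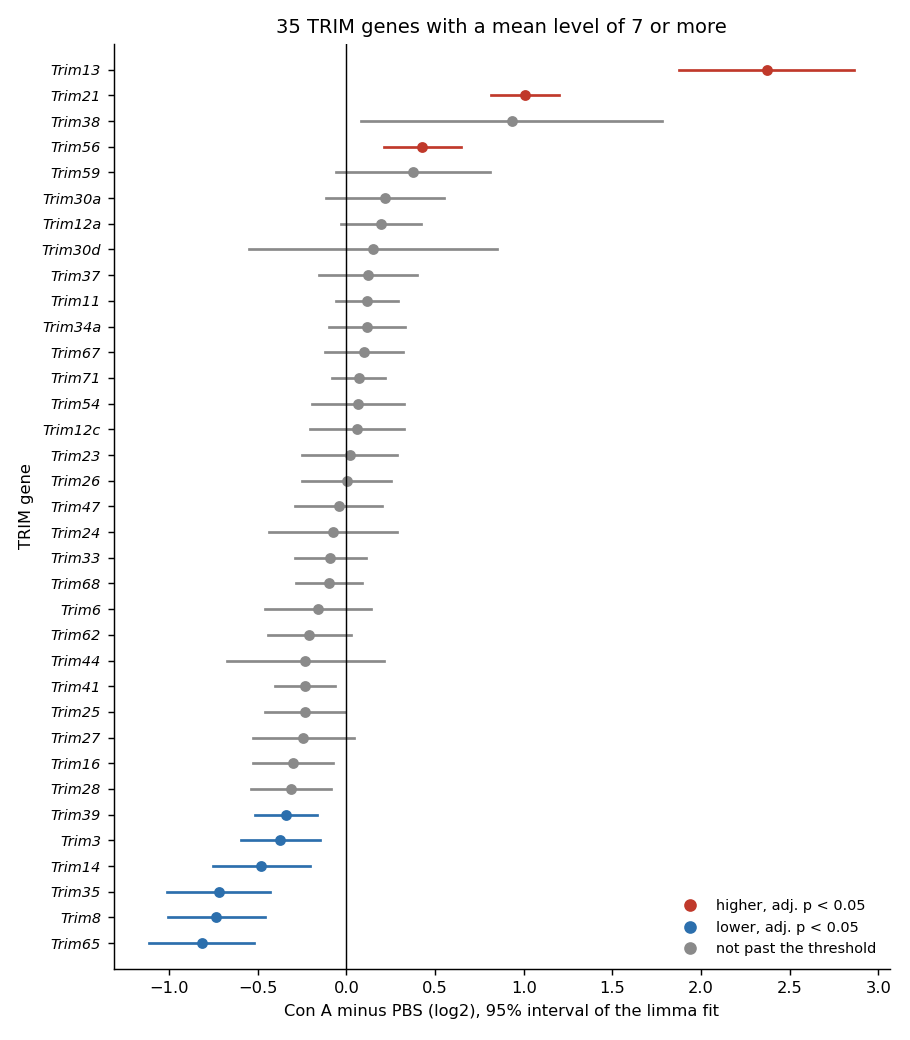
Log2 difference, Con A minus PBS (x axis), with its 95% interval for the 35 TRIM genes with a mean level of 7 or more (y axis, ordered by difference). Red genes rose and blue genes fell at an adjusted p under 0.05; Trim13 stands at 2.37 and Trim65 at -0.82, and 26 genes in grey did not pass.

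TRIM-family genes that carry other names were measured beside the set. Of 9, 1 rose and 0 fell, or 11.1%, near the 11.8% of all genes that passed. Pml, which encodes the organiser of nuclear bodies and is a known interferon target, read 9.32, 9.57 and 9.20 after PBS and 9.76, 9.93 and 10.07 after Con A. It rose by 0.56 (95% interval 0.27 to 0.84, limma adjusted p = 0.0252). Mefv, which encodes the inflammasome sensor pyrin, differed by 1.09 (0.28 to 1.90) and Mid1, a microtubule-bound ligase, by 0.98 (0.33 to 1.62), and neither passed (limma adjusted p = 0.0951 and 0.0648).

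Of 27 measured genes of nucleic acid sensing, 8 rose and 4 fell, or 44.4%. That compares with 11.8% of all genes and 19.6% of those at level 7 or more, a range that holds all but Tlr3 and Sarm1. Zbp1, a sensor of Z-form nucleic acids, rose by 1.57. Tbk1, the kinase that activates IRF3, read 9.99, 9.90 and 9.95 after PBS and 11.03, 11.16 and 10.89 after Con A. It rose by 1.08 (95% interval 0.87 to 1.28, limma adjusted p = 0.000827). Traf6, a ligase of Toll-like receptor signalling, rose by 0.89, and Ddx58, the gene of RIG-I, rose by 0.46.

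Mavs went the other way. It read 8.94, 8.85 and 9.26 after PBS and 7.52, 7.86 and 7.92 after Con A and the groups were far apart. It fell by 1.25 (95% interval -1.59 to -0.91, limma adjusted p = 0.00233). Aim2, a sensor of cytosolic DNA, fell by 0.68, Ddx41 by 0.46 and Rnf135, the gene of a ligase that acts on RIG-I, by 0.45. Ifih1, the gene of MDA5, differed by 0.74 (95% interval 0.18 to 1.30) and did not pass (limma adjusted p = 0.102), with 10.81 on PBS replicate 3 against 10.71 on Con A replicate 1.

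**Figure D5:**
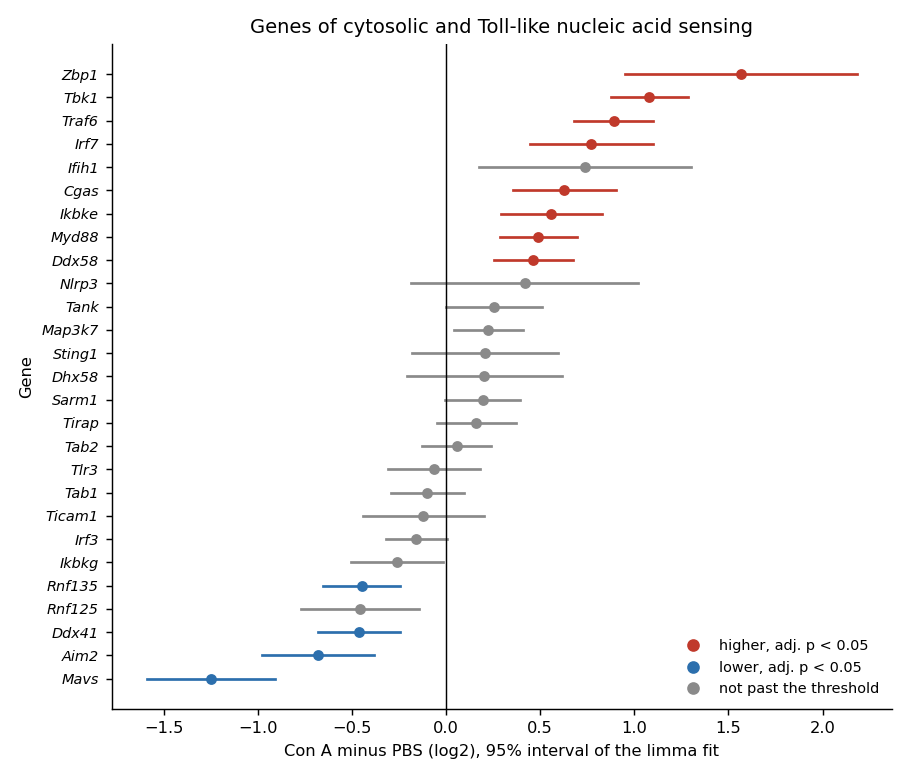
Log2 difference, Con A minus PBS (x axis), with its 95% interval for 27 genes of nucleic acid sensing (y axis, ordered by difference). Red genes rose (8, from Ddx58 at 0.46 to Zbp1 at 1.57) and blue genes fell (4, with Mavs at -1.25) at an adjusted p under 0.05; grey genes did not pass.

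Of 16 measured interferon signalling factors, 7 rose and 0 fell, where 4.59% of all genes rose and 7.33% of those at level 7 or more. Among the 7 were Socs1 by 3.23, Irf1 by 1.47, Ifng by 1.29 and Stat2 by 1.21. Of 6 measured genes of ISG15 conjugation, which attaches a ubiquitin-like protein, 2 rose and 0 fell. So 33.3% rose, against 4.59% of all genes and 7.33% of those at level 7 or more. The conjugating enzyme gene Ube2l6 rose by 1.53 and the activating enzyme gene Uba7 by 0.53. Of 17 measured ubiquitin-conjugating (E2) enzyme genes, the partners of RING ligases, 2 rose (Ube2s by 0.53 and Ube2e3 by 0.32) and Ube2w fell by 0.43. That is 17.6%, near the 19.6% of all genes at level 7 or more, a range that holds all 17. Their median difference was 0.04.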

How the data were processed

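The authors deposited log2 values of 6 Affymetrix gene arrays, made with RMA and Partek, per the submitters' processing notes, which give neither versions nor settings. RMA shrinks differences at low and at very high signal, which makes the folds of dim genes too small. Amplification used a whole-transcriptome kit, per the labels' protocols. Of 35556 rows, 21789 had 1 gene symbol, 1621 several and 12146 none. The row with the highest mean stood for a gene. All 19938 genes were tested in R 4.3.3 with limma 3.58.1 by a two-sided moderated test at a threshold of 0.05, and the fit was tested on simulated data. No pair of arrays was identical (0 pairs). Promoters are RefSeq's; for the array's genome build, the sources used here give none. Plots used Python 3.11.15, pandas 2.3.3 and matplotlib 3.10.9.

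Named genes were those that passed, the 6 with the highest mean level, those at 7 or more with a difference of 0.5 or more, and the 2 nearest to 7 on each side; other members are given by range, or singly after their values were seen. Of each list up to 4 genes that passed were eligible, by size of difference; Ddx58, Aim2, Ddx41, Rnf135, Ifih1, Mefv and Mid1 were named beyond these, after their values were seen. The members, role groups, pathway lists and markers (15 lists, 147 entries) were chosen with earlier results of these data known. Alternatives were the replicate block, each array left out, array medians subtracted, the mean of a gene's rows, genes at level 7 or more alone, and an intensity trend in the prior.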

Additional observations from a re-analysis of the deposited data

Results flagged for a closer look

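Probe set 10376446, which the annotation ties to H2aw and Trim17 together and which is therefore no part of the set of 58 genes, was higher on every Con A array (8.37, 8.36 and 8.47) than on any PBS array (8.04, 8.17 and 8.19). The difference was 0.27, it was not tested, and the genes cannot be told apart. Con A values lay above PBS values in this way in 16.2% of all genes at level 7 or more.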

How the results depend on the processing

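With 1 array left out, the count of TRIM genes that fell ranged from 2 to 5 and that of genes that rose from 2 to 3, at level 7 or more as in the whole set, and the count over all genes from 1140 to 2765. Subtracting array medians, averaging a gene's rows and testing genes at level 7 or more alone kept the same 9 TRIM calls. The intensity trend lost Trim3 (adjusted p = 0.0676). No difference that passed changed direction in any alternative. With the replicate number as a block, 8 TRIM genes passed, all among the 9, and Trim39 did not (adjusted p = 0.0518); over all genes the block gave 2539 calls against 2355. The numbers are not taken to pair the arrays, since deviations from the group means correlated at 0.23, -0.17 and 0.56 for replicates 1, 2 and 3, and PBS replicate 2 correlated best with Con A replicate 1 (0.54). The number of arrays and the lack of detection calls limit what can be said of small differences: Trim3 and Trim39, which fell by 0.37 and 0.34, each kept their call in 1 of the 6 fits with an array left out.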

Other observations

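Other array rows that name several genes, including a TRIM gene, were not part of the set. Those with Trim12a or Trim12c name members of the set together with Trim5. The row for Trim5, Trim12c and Trim12a averaged 10.99 with a difference of 0.16, and that for Trim5 and Trim12c averaged 10.45 with a difference of 0.19. The row for Gm38525 and Trim30b averaged 11.38 with a difference of -0.25. Those for Trim60 with Trim61 and for Trim43a, Trim43b and Trim43c averaged 6.29 and 4.83, with differences of -0.03 and 0.00. The groups overlapped in all 5 of these rows.

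Of 6 TRIM genes of chromosome 17, 5 form a run of neighbours, Trim26, Trim15, Trim10, Trim40 and Trim31. Of the 5, 0 passed limma's test (0 at an unadjusted p under 0.05), with differences of 0.00 to 0.13. All but Trim26 had mean levels below 7, where 2.22% of all genes passed, so this count is near the background. On chromosome 11, Trim65 fell by 0.82 while its neighbour Trim47 differed by -0.04 (95% interval -0.29 to 0.20). Among the 35 genes at level 7 or more, PBS replicate 3 was the highest PBS array for 17.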
